A study of Homo sapiens with 6 samples.

Results

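The genes described are 34 endoplasmic reticulum chaperones and genes of the unfolded protein response, chosen by name and taken as the rows with those symbols among the 60591 genes of the count table. All 34 symbols were found, and 33 had enough counts to be tested. The exception was DERL3, with a mean level of 0.214 ± 0.0267 CPM in DMSO (read counts scaled to library depth; SD, n = 3). The RNA came from KYSE150, an established human cell line of oesophageal squamous cell carcinoma, a model that is a single line in culture. Of the 6 libraries, 3 were labelled TPA, a phorbol ester that activates protein kinase C, and 3 were labelled DMSO, the solvent. Per the labels, cells were kept overnight without serum and then given TPA at 10 ng/ml for 24 h. The labels give neither a dose nor a time for DMSO. Nor do they say that the 3 libraries of a group are separate cultures, and p-values therefore describe the spread among these libraries alone, which may be technical.

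Proteins bound for the cell surface or for secretion are folded in the endoplasmic reticulum by chaperones, by lectins that hold their sugars and by enzymes that form disulfide bonds. When unfolded proteins build up, the membrane sensors encoded by ERN1, EIF2AK3 and ATF6 start the unfolded protein response, in which spliced XBP1 and cleaved ATF6 turn on chaperone and degradation genes while EIF2AK3 slows translation. Proteins that stay unfolded are returned to the cytosol and destroyed, a route called endoplasmic reticulum-associated degradation. Secretory epithelia rely on this response, and squamous carcinoma cells that secrete cytokines and proteases use the same machinery.

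Many genes of this response carry a short promoter element bound by ATF6 and XBP1 together with the CCAAT-binding factor NF-Y. RefSeq promoter windows (GRCh38.p14, 250 bases before to 50 after a start site) were at hand for 30 of the 34 members. The window table has no entry for SEC24D, DERL1, DERL3 and PDIA3. Both strands were searched for the endoplasmic reticulum stress response element, CCAAT followed after any 9 bases by CCACG, and for its type II form, ATTGG followed after 1 base by CCACG. A gene can have more than 1 window. The first stood in 27 of all 35116 windows (0.0769%), or 25 of 27305 gene symbols (0.0916%), and in 8 of the 30 members, or 26.7%. The second stood in 19 windows (0.0541%), or 19 symbols (0.0696%), and in 3 of the 30 members. Another motif, the XBP1 element TGACGTGG, stood in 256 windows (0.729%), or 253 symbols (0.927%). It stood in 1 member, HYOU1, where it overlaps a type II element. The members were chosen by name as genes of this response, so a higher share among them is no independent result. A match describes these letters only and does not show that a factor binds.

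The stretches are printed for the 11 members that hold the element or its type II form. The other 19 members with a window had neither. Each is written 5′ to 3′ on the strand of its gene with the element in capitals, so an element on the opposite strand reads as its reverse complement. The first 3 are longer promoter stretches. That of HSPA5 ends at the RefSeq start, and those of XBP1 and HERPUD1 end where the GENCODE 29 gene begins.
HSPA5 (chr9:125241344-125241593, minus strand): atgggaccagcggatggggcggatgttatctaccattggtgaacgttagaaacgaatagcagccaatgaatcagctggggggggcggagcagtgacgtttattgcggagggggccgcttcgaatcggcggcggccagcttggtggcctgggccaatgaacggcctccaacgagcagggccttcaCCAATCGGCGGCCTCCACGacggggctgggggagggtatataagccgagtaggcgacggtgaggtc
XBP1 (chr22:28800598-28800819, minus strand): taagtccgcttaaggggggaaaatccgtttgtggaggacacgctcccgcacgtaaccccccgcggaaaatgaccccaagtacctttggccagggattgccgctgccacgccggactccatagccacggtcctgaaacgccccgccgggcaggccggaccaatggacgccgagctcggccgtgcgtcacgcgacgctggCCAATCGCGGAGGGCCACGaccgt
HERPUD1 (chr16:56931892-56932047, plus strand): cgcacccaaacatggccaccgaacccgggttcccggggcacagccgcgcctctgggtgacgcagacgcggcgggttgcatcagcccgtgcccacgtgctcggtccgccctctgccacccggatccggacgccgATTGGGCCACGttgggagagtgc
HYOU1, nearer (chr11:119057269-119057289, minus strand): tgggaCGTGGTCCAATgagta
HYOU1, farther (chr11:119057375-119057395, minus strand): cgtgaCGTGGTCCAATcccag
SDF2L1 (chr22:21642109-21642129, plus strand): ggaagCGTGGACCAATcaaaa
HSP90B1, nearer (chr12:103930316-103930344, plus strand): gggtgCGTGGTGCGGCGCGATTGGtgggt
HSP90B1, farther (chr12:103930211-103930239, plus strand): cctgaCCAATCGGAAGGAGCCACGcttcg
CRELD2 (chr22:49918549-49918577, plus strand): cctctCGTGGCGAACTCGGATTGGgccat
CALR (chr19:12938379-12938407, plus strand): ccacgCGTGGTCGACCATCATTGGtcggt
CANX (chr5:179698773-179698801, plus strand): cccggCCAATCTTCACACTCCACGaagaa
PDIA6 (chr2:10812848-10812876, minus strand): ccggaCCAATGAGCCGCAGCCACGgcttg
ERO1B (chr1:236282178-236282206, minus strand): gcccgCGTGGTCCCGCCTCATTGGccgcc

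The HSPA5 element begins 66 bases before the RefSeq start, that of XBP1 52 bases and that of HERPUD1 117 bases. The 11 members with an element fell on both sides of the expression data described below. With the library number in the model, 3 of the 11 rose in TPA (HYOU1, HERPUD1 and XBP1), against 4 of the 19 members with a window and neither element and 4.58% of all genes tested. The ratio of TPA to DMSO was below 1 in numbers 2 and 3 for 3 of the 11 (HSP90B1, CANX and ERO1B) and for 4 of the 19, beside 49.4% of all genes. The elements were not tested against these values.

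Library totals ran from 27702329 to 33965547 counts. Of 12 squamous epithelial markers 11 had a mean over 1 CPM, the exception being SOX2, and their summed level was 4482 to 6417 CPM in DMSO and 5636 to 5737 CPM in TPA. Single markers varied more than their sum. KRT5, a basal keratin, had 428.5, 1736 and 1780 CPM in DMSO and 66.7, 490.5 and 509 CPM in TPA, low in number 1 of both groups. The receptor gene EGFR stood at 3834 CPM in TPA 1 and at 1342 to 1931 CPM in the other libraries. With the library number as a block, 1 of the 11 tested squamous markers rose (KRT6A) and 3 fell, beside 4.58% and 6.52% of all genes tested. The 3 were KRT5 (log2 fold change -2.10 ± 0.27, adjusted p = 0.00151), TP63 (-1.19, 0.0144) and DSG3 (-1.49, 0.0186). Their part in the results of the members was not tested. Summed levels of 7 fibroblast, 8 leukocyte and 4 endothelial markers reached at most 12.2, 10.2 and 2.93 CPM in any library, and DCN, CD3D, MS4A1 and KDR were at 0 counts in all 6. A count per gene in bulk RNA cannot tell fewer expressing cells from less RNA per cell. The libraries labelled DMSO 1 and TPA 1 stood apart from numbers 2 and 3 of their groups. Libraries of 1 number deviated from their group means together (correlation 0.665, 0.439 and 0.66 across 12100 genes for numbers 1, 2 and 3), though DMSO 3 with TPA 2 was as close at 0.656 and DMSO 2 with TPA 3, at 0.49, was closer than number 2 itself. These values set number 1 apart and do not tell numbers 2 and 3 from each other. Results are therefore given from the comparison of 3 with 3 libraries and from a second fit with the number as a block, called the blocked fit, which compares TPA with DMSO inside each number. The spread in the blocked fit rests in part on the difference between numbers 2 and 3, which lay close together, so its p-values may be too small.

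Most of the 33 tested members had higher levels in TPA, but none passed the test on 3 against 3 libraries. With edgeR's quasi-likelihood test and Benjamini-Hochberg adjustment over 21825 genes, 0 members were higher and 0 lower, against 0.861% and 0.394% of all genes. In the same test 11 members (33.3%) had an unadjusted p under 0.05, against 22.1% of all genes. DESeq2 called 7 higher and 0 lower (6.93% and 3.21% of all genes) and limma-voom 0 and 0 (1.13% and 0.596%). The median log2 fold change of the members was 0.43, beside -0.11 over all genes, and 28 of 33 were above 0. Scaling by library size alone moved the median of all genes to -0.36 and that of the members to 0.19. It also turned PDIA6, ATF6, EDEM1 and EDEM2 below 0.

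In the blocked fit 7 members rose and 0 fell, against 4.58% and 6.52% of all genes. The 7 were HERPUD1, PPP1R15A, XBP1, SYVN1, SELENOS, HYOU1 and ERN1, and 5 of them were also among the 7 that DESeq2 called, with P4HB and WFS1 in place of HYOU1 and ERN1. For 15 of 33 members all 3 TPA libraries lay above all 3 DMSO libraries, and for 0 all lay below. Over all genes those shares were 14.3% and 15.2%. All 7 called members were among the 15. Without DMSO 1, XBP1 and PPP1R15A were the 2 members called higher and 0 were lower (0.449% and 0.169% of all genes). Without TPA 1, 15 were called higher and 7 lower (24.6% and 27.8%).

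**Figure D1:**
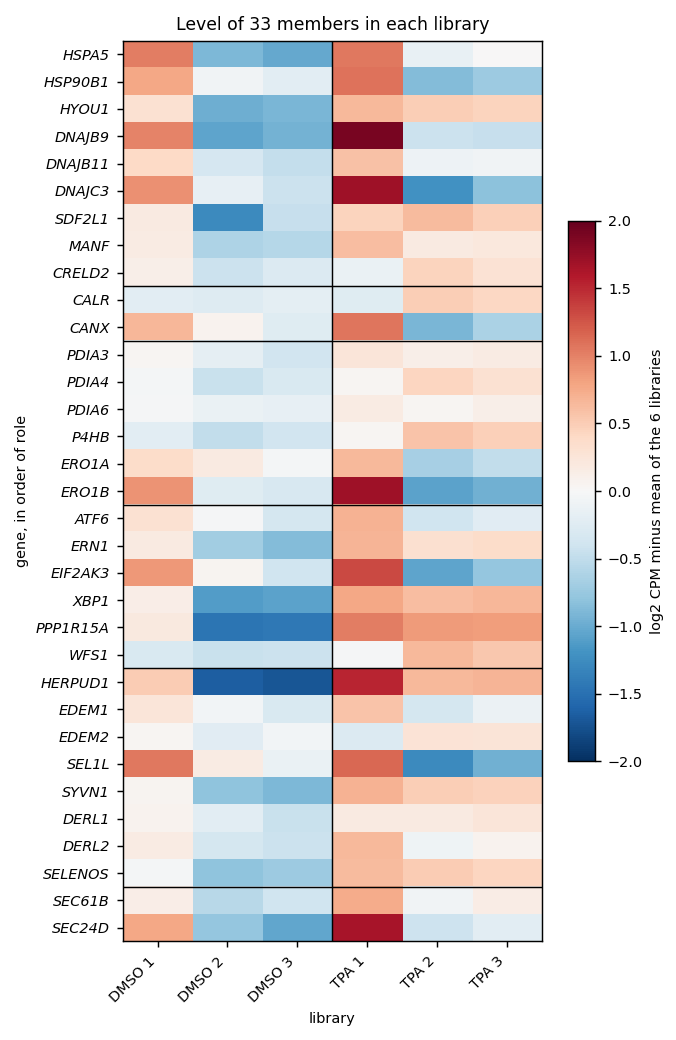
Level of the 33 tested members in each of the 6 libraries, as log2 CPM minus the mean of the 6 libraries, with genes in order of role and a line between DMSO and TPA. DMSO 1 is above DMSO 2 and DMSO 3 in 32 of 33 rows, and TPA 1 holds the highest values of genes such as DNAJB9, DNAJC3, ERO1B and SEC24D.

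The largest fold changes were in genes of degradation and of signalling, not in the abundant chaperones. HERPUD1 encodes a membrane protein that gathers the degradation complex, and its gene lies on chromosome 16 (56932048 to 56944863, plus strand, GENCODE 29 on GRCh38). It had 293, 66.0 and 63.4 CPM in DMSO 1, 2 and 3, and 593, 324 and 332 CPM in TPA 1, 2 and 3. Every TPA library lay above every DMSO library, but DMSO 1 came close to TPA 2 and TPA 3. The log2 fold change was 1.56 ± 0.63 (SE) with adjusted p = 0.202, and 1.91 ± 0.31 with adjusted p = 0.00596 in the blocked fit. Without the block, leaving out DMSO 1 moved it to 2.69 (adjusted p = 0.0524), and leaving out any other library gave 1.22 to 1.73. Within numbers 1, 2 and 3 HERPUD1 was 2.02-, 4.91- and 5.24-fold higher in TPA.

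SYVN1, the ubiquitin ligase at the centre of that complex (chromosome 11, 65121780 to 65134533, minus strand), had 140.4, 78.1 and 72.8 CPM in DMSO and 220.3, 191 and 187 CPM in TPA. No DMSO library reached a TPA library, and number 1 was again the highest in both groups. Its log2 fold change was 1.04 ± 0.29 (adjusted p = 0.102), and 1.10 ± 0.25 in the blocked fit (adjusted p = 0.0228). SELENOS, a selenoprotein that links the membrane complex to the VCP ATPase (chromosome 15, 101270817 to 101277500, minus strand), had 67.8, 39.9 and 42.0 CPM in DMSO and 108, 98.9 and 94.2 CPM in TPA. The 3 TPA values lay together, well above DMSO 2 and 3 and above DMSO 1. SELENOS had the lowest adjusted p of the members without the block, at a fitted log2 fold change of 1.01 ± 0.26 (adjusted p = 0.0885), and 1.05 ± 0.25 in the blocked fit (adjusted p = 0.0250).

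SEL1L, the partner that steadies SYVN1, did not follow it. Its levels were 196, 106 and 86.1 CPM in DMSO and 210.3, 39.1 and 48.4 CPM in TPA. TPA 1 was slightly above DMSO 1, while TPA 2 and TPA 3 were the lowest of the 6 libraries. The log2 fold change of -0.38 ± 0.66 (adjusted p = 0.757), or -0.73 ± 0.31 in the blocked fit (adjusted p = 0.127), did not pass. The mannose-trimming genes EDEM1 and EDEM2 had 0.11 ± 0.29 and 0.18 ± 0.23, and the derlin genes DERL1 and DERL2, which encode membrane proteins of the export channel, 0.37 ± 0.21 and 0.43 ± 0.28. DERL3 had 4 to 7 counts in every library. Of the 8 tested degradation members 0 passed on 3 against 3 libraries, with 3 at an unadjusted p under 0.05 and 3 higher in DESeq2, and 3 rose in the blocked fit. Over all genes those shares were 0.861% (higher), 22.1%, 6.93% and 4.58%.

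Among the sensors and regulators PPP1R15A had the largest fold change. It encodes the subunit that directs protein phosphatase 1 to the translation factor that EIF2AK3 phosphorylates, and so lets translation resume (chromosome 19, 48872392 to 48876057, plus strand). Its levels were 461, 145 and 149 CPM in DMSO and 815, 726 and 715 CPM in TPA. The groups did not overlap, the 3 TPA libraries were close together, and DMSO 1 lay between the 2 sets. The log2 fold change was 1.58 ± 0.46 (adjusted p = 0.108), and 1.81 ± 0.33 in the blocked fit (adjusted p = 0.00901). Without the block it passed once DMSO 1 was left out, at 2.36 (adjusted p = 0.0285), and with TPA 1 left out, at 1.63 (adjusted p = 0.0227). In numbers 1, 2 and 3 the ratio of TPA to DMSO was 1.77, 5.0 and 4.81.

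XBP1, the transcription factor that ERN1 activates by splicing its mRNA (chromosome 22, 28794555 to 28800597, minus strand), had 156, 65.6 and 67.6 CPM in DMSO and 242, 218 and 224 CPM in TPA. All 3 TPA libraries were above DMSO 1, which was itself over 2-fold above the other DMSO libraries. Its log2 fold change was 1.24 ± 0.36 (adjusted p = 0.107), and 1.37 ± 0.28 in the blocked fit (adjusted p = 0.0163). Counts per gene do not separate spliced from unspliced XBP1. ERN1, the sensor and nuclease itself (chromosome 17, 64039142 to 64130819, minus strand), had 32.5, 17.7 and 15.7 CPM in DMSO and 45.7, 35.7 and 36.8 CPM in TPA. DMSO 1 fell just short of the lower TPA libraries. ERN1 had 0.84 ± 0.32 (adjusted p = 0.184), and 0.91 ± 0.25 in the blocked fit (adjusted p = 0.0417).

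The other sensors did not pass in either fit. ATF6 (chromosome 1, 161766294 to 161964070, plus strand), whose product is cut in the Golgi to release a transcription factor, had 103, 82.9 and 66.0 CPM in DMSO and 136, 63.7 and 71.5 CPM in TPA. TPA 1 was the highest library and TPA 2 the lowest, with all DMSO libraries between them. ATF6 had a fitted log2 fold change of 0.11 ± 0.34 (adjusted p = 0.876), and 0.05 ± 0.25 in the blocked fit (adjusted p = 0.912). EIF2AK3, the kinase that slows translation (chromosome 2, 88556741 to 88627576, minus strand), had 46.2, 26.2 and 19.2 CPM in DMSO and 63.1, 12.2 and 14.8 CPM in TPA. Here TPA held both the highest and the lowest libraries. The log2 fold change was -0.02 ± 0.66 (adjusted p = 0.986), and -0.34 ± 0.30 in the blocked fit (adjusted p = 0.451). WFS1, a membrane protein of the reticulum that restrains ATF6 signalling, stood at 21.9 ± 1.20 CPM in DMSO and 38.3 ± 8.88 CPM in TPA. DESeq2 called it higher (log2 fold change 0.95, adjusted p = 0.0266), but WFS1 had adjusted p = 0.118 in edgeR and 0.0675 in the blocked fit. Of the 6 sensors and regulators 0 passed on 3 against 3 libraries, with 4 at an unadjusted p under 0.05 and 3 higher in DESeq2, and 3 rose in the blocked fit, beside 0.861%, 22.1%, 6.93% and 4.58% of all genes.

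**Figure D2:**
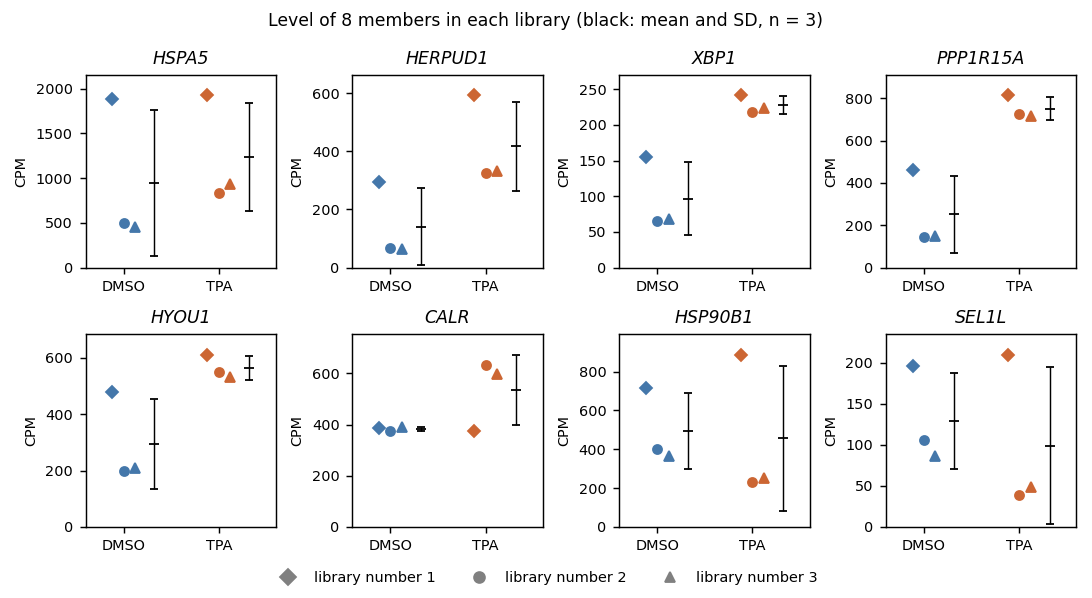
CPM of 8 members in each library, with the library number as symbol and the mean and SD of each group (n = 3) in black; each axis starts at 0 and has its own scale. PPP1R15A, XBP1 and HYOU1 show 3 TPA libraries close together above all DMSO libraries, CALR is higher in TPA 2 and TPA 3 but not in TPA 1, and HSP90B1 and SEL1L are lowest in TPA 2 and TPA 3.

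The chaperones of the Hsp70 and Hsp90 families split into different patterns. HSPA5 encodes BiP, the main Hsp70 of the reticulum and the classic reporter of the response (chromosome 9, 125234853 to 125241330, minus strand). Its levels were 1882, 498 and 455 CPM in DMSO and 1926, 835 and 932 CPM in TPA. The number of a library separated HSPA5 more than the treatment did, since both libraries numbered 1 were above all others. Its log2 fold change was 0.38 ± 0.60 (adjusted p = 0.733), and 0.61 ± 0.26 in the blocked fit (adjusted p = 0.136). Without the block a single library set the size of this value, which was 1.38 without DMSO 1, 0.014 without TPA 1, 0.08 and 0.06 without DMSO 2 and DMSO 3, and 0.61 and 0.56 without TPA 2 and TPA 3. The ratio of TPA to DMSO was 1.02 in number 1, 1.68 in number 2 and 2.05 in number 3.

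HYOU1, a large Hsp70 relative that exchanges the nucleotide of BiP (chromosome 11, 119044189 to 119057202, minus strand), had 479.7, 199 and 208 CPM in DMSO and 612, 549 and 531 CPM in TPA. The TPA libraries were close together, and DMSO 1 lay just under them. HYOU1 had a fitted log2 fold change of 0.93 ± 0.36 (adjusted p = 0.187), and 1.06 ± 0.28 in the blocked fit (adjusted p = 0.0372). Without DMSO 1 the unblocked value was 1.48 (adjusted p = 0.0541). HSP90B1, the Hsp90 of the reticulum (chromosome 12, 103930107 to 103953645, plus strand), had 717, 400.5 and 363 CPM in DMSO and 887, 230.5 and 252 CPM in TPA. TPA 1 was the highest library, while TPA 2 and TPA 3 were below every DMSO library. Its log2 fold change was -0.11 ± 0.55 (adjusted p = 0.920), and -0.34 ± 0.27 in the blocked fit (adjusted p = 0.391).

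Among the co-factors of BiP, the J-domain gene DNAJB9 had 0.79 ± 0.80 and DNAJB11 0.26 ± 0.32 on the log2 scale. DNAJC3, another J-domain gene, had a fitted log2 fold change of 0.27 ± 0.77, which turned to -0.22 ± 0.33 in the blocked fit. SDF2L1, a partner of DNAJB11, stood at 12.3 ± 5.86 CPM in DMSO and 23.4 ± 1.73 CPM in TPA, and its adjusted p of 0.0561 in the blocked fit missed the threshold. MANF, a secreted factor that binds BiP, had 0.64 ± 0.28, and CRELD2, a stress-induced protein of the lumen, 0.39 ± 0.27. Of these 9 chaperones and co-factors 0 passed on 3 against 3 libraries, with 2 at an unadjusted p under 0.05 and 0 higher in DESeq2, and 1 rose in the blocked fit. The all-gene shares beside these are again 0.861%, 22.1%, 6.93% and 4.58%.

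The lectin chaperones CALR and CANX, which hold newly made glycoproteins, differed in pattern, and neither passed on 3 against 3 libraries in edgeR or DESeq2. CALR (chromosome 19, 12938578 to 12944489, plus strand) had 387, 375 and 389.7 CPM in DMSO and 377, 633 and 597 CPM in TPA. The DMSO libraries were nearly level, DMSO 1 included, and TPA 1 stayed with them while TPA 2 and TPA 3 were higher. CALR had a fitted log2 fold change of 0.48 ± 0.24 (adjusted p = 0.283), and 0.45 ± 0.25 in the blocked fit (adjusted p = 0.236). It passed without TPA 1, at 0.79 (adjusted p = 0.000742), with 24.6% of all genes then called higher. CANX stood at 1084 ± 357 CPM in DMSO and 1024 ± 822 CPM in TPA, with a log2 fold change of -0.08 ± 0.53. Of these 2 genes 0 had an unadjusted p under 0.05 in edgeR.

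Genes of disulfide formation had small fold changes, and none passed in edgeR with or without the block. The isomerase gene P4HB had the largest value of the group, 417 ± 40.7 CPM in DMSO and 692 ± 127 CPM in TPA, and a log2 fold change of 0.73 ± 0.21 (adjusted p = 0.106). It was called higher in DESeq2 and missed the threshold in the blocked fit (adjusted p = 0.0819). The isomerase genes PDIA4, PDIA3 and PDIA6 had 0.52 ± 0.21, 0.34 ± 0.19 and 0.22 ± 0.18, and in each of them the groups did not overlap. The oxidase genes that recharge these enzymes had -0.22 ± 0.37 for ERO1A and 0.28 ± 0.77 for ERO1B, the latter with -0.21 ± 0.33 in the blocked fit. Of the 6 genes 0 passed on 3 against 3 libraries, with 2 at an unadjusted p under 0.05, 1 higher in DESeq2 and 0 in the blocked fit, again beside 0.861%, 22.1%, 6.93% and 4.58% of all genes.

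The translocon subunit gene SEC61B had 36.6 ± 9.55 CPM in DMSO, 53.8 ± 16.4 in TPA and a fitted log2 value of 0.56 ± 0.30. SEC24D, which selects cargo for vesicles that leave the reticulum, had 53.6 ± 39.0 and 91.6 ± 77.5 CPM, or 0.77 ± 0.68. Neither passed in edgeR, with or without the block, or in DESeq2, and 0 had an unadjusted p under 0.05 on 3 against 3 libraries (22.1% of all genes).

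**Figure D3:**
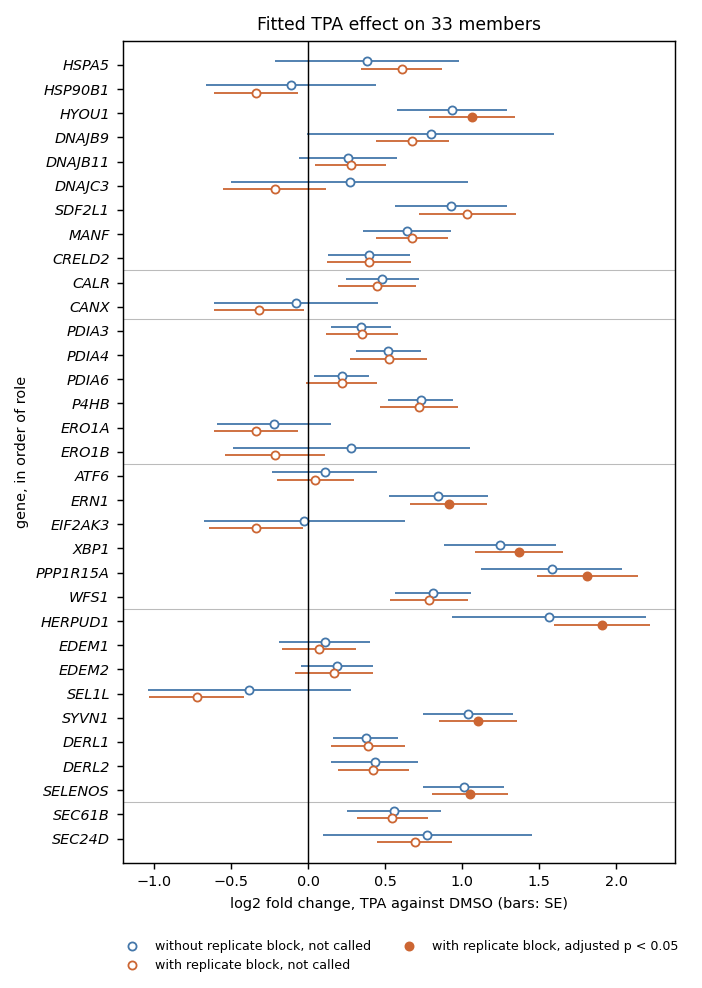
Fitted log2 fold change of TPA against DMSO for the 33 tested members, with SE bars, without the block (blue) and with it (orange); filled points have an adjusted p under 0.05. Only 7 points are filled, all in the blocked fit and all above 0, from ERN1 at 0.91 to HERPUD1 at 1.91.

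Levels of most members were higher in the libraries numbered 1. DMSO 1 exceeded both DMSO 2 and DMSO 3 in 32 of 33 members, 97.0%, against 42.0% of all genes tested. Among the other lists given below, the share was 91.3% of COPII and retrieval genes and 81.25% of translocation genes. It was 63.2% for stress signalling, 57.7% for degradation, 43.2% for folding factors and 42.3% for cytosolic and mitochondrial chaperones. The level of DMSO 1 over the mean of the other 2 had a median log2 ratio of 0.75 in the members and 0.00 in all genes. An excess over 2-fold was found in 4.61% of all genes, 21.05% of other stress signalling genes and 0 to 4.35% of the remaining lists. Among the members it was found in 11 (33.3%). These were HERPUD1 (4.54-fold), DNAJB9 (3.98-fold), HSPA5 (3.95-fold), SEC24D, PPP1R15A, HYOU1, XBP1, DNAJC3, ERO1B, SEL1L and EIF2AK3. CALR, at 1.01-fold, was the least raised. TPA 1 exceeded both other TPA libraries in 25 members (75.8%, against 47.2%), with a median log2 ratio of 0.43. Its excess reached 6.57-fold in ERO1B and 6.49-fold in DNAJC3, while CALR was lower in TPA 1, at 0.613-fold. The labels do not state how libraries of different numbers differed, and what set number 1 apart was not tested.

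Within the numbers, 21 of 33 members (63.6%) had a higher level in TPA in all 3, against 22.5% of all genes. The other lists given below lay between, from 38.5% of degradation genes to 47.4% of stress signalling genes. Cytosolic and mitochondrial chaperones had 42.3%. The median log2 ratio of the members was 0.35, 0.50 and 0.56 in numbers 1, 2 and 3, beside -0.02, -0.20 and -0.17 in all genes. Another 7 members were higher in TPA in number 1 and lower in numbers 2 and 3: HSP90B1, DNAJC3, CANX, ERO1A, ERO1B, EIF2AK3 and SEL1L. That is 21.2% of the members, close to the 20.1% of all genes with the pattern. CRELD2, CALR and EDEM2 had the opposite pattern, and ATF6 and EDEM1 were mixed.

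A test of the difference itself, added after these patterns were seen in the same libraries, found a TPA effect in number 1 that differed from that in numbers 2 and 3 for 24 of 33 members, against 46.7% of all genes. The log2 effect of number 1 minus that of numbers 2 and 3 was negative for 16 and positive for 8. For PPP1R15A this difference was -1.47 and for HERPUD1 -1.33, although both were higher in TPA in every number. For ERO1B it was 1.53, with TPA above DMSO in number 1 and below it in the others. A positive difference does not mean a stronger effect in number 1. SEL1L had a log2 ratio of 0.10 in number 1 and a mean of -1.14 in numbers 2 and 3. DNAJB9, DNAJB11, MANF, PDIA3, PDIA6, EDEM1, DERL2, SEC61B and SEC24D were the 9 without a detected difference. Number 1 is a single library per group and the spread comes only from numbers 2 and 3, so this test compares these libraries and is no independent evidence of a difference. With both libraries numbered 1 left out, 24 members were called higher and 7 lower, against 32.2% and 33.3% of all genes, from 2 close libraries against 2. The 7 lower were the 7 that had gone up in number 1 and down in the others.

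**Figure D4:**
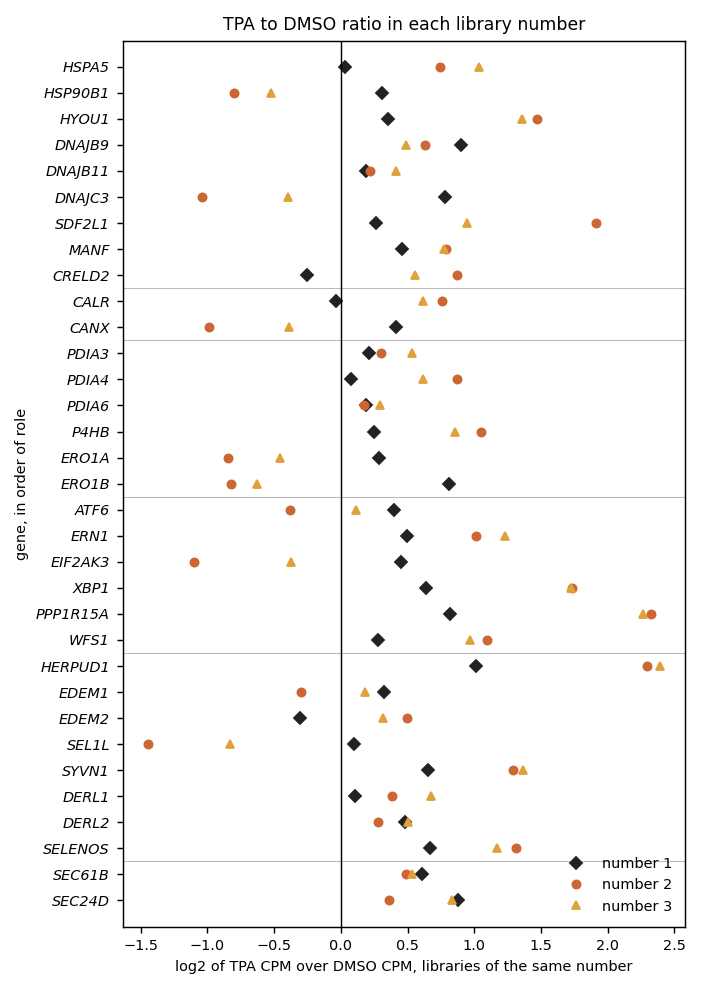
Log2 ratio of TPA CPM over DMSO CPM within each library number for the 33 tested members, in order of role. Numbers 2 and 3 reach up to 2.39 (HERPUD1, number 3) and down to -1.44 (SEL1L, number 2), while number 1 stays between -0.31 (EDEM2) and 1.01 (HERPUD1). Numbers 2 and 3 nearly coincide in genes such as XBP1, lie apart in SDF2L1 (1.91 and 0.95), and differ in sign in ATF6 and EDEM1.

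In numbers 2 and 3 the direction of a member also went with the base composition of its transcript. The 7 members lower in both had transcripts of 37.0% to 46.6% GC (median 42.4%), and the 24 higher in both had 40.4% to 66.2% (median 49.9%). Over the 33 members, GC content and the mean log2 ratio of numbers 2 and 3 were correlated (Spearman 0.72), whereas for number 1 the correlation was -0.25. Over 11998 expressed genes the values were 0.65 and -0.11. These points share their libraries, so no p is given. HERPUD1, at 48.6% GC, had a mean log2 ratio of 2.34 in numbers 2 and 3, where expressed genes of like composition, a bin around 48.4% GC, had a median of 0.03. PPP1R15A, at 57.7% GC, had 2.29, beside a median of 0.57 in the bin around 57.2%. SEL1L, at 42.4% GC, had -1.14, beside -0.84 in the bin around 41.5%.

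After each library's trend on GC content was removed and the block kept, 14 members were called higher and 0 lower, against 8.99% and 10.4% of 21024 genes. The median log2 fold change was 0.50, beside -0.14 over all those genes. All 7 members of the blocked fit were among the 14, with HERPUD1 at 1.85 ± 0.29 (adjusted p = 0.0138), PPP1R15A at 1.44 ± 0.20 (adjusted p = 0.0115) and XBP1 at 1.24 ± 0.22 (adjusted p = 0.0178). Each of these 7 had a smaller fold change than in the blocked fit. HYOU1 went from 1.06 to 0.69, SYVN1 from 1.10 to 0.73, ERN1 from 0.91 to 0.67 and SELENOS from 1.05 to 0.94. The other 7 of the 14 were DNAJB9, MANF, ATF6, WFS1, DERL2, SEC61B and SEC24D. ATF6 went from a log2 fold change of 0.05 in the blocked fit to 0.56 ± 0.12 (adjusted p = 0.0317), and DNAJB9 reached 1.22 ± 0.17 (adjusted p = 0.0110). HSPA5 stayed short of the threshold at 0.78 ± 0.26 (adjusted p = 0.0828). CALR came down from 0.45 to 0.08 ± 0.10, and HSP90B1 turned from -0.34 to 0.13 ± 0.10.

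**Figure D5:**
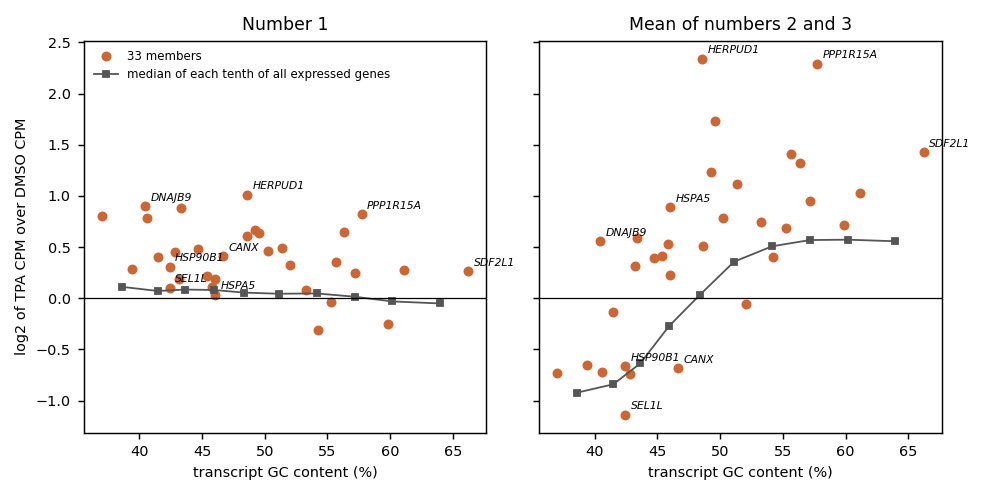
Log2 ratio of TPA over DMSO against transcript GC content for the 33 tested members (points), in number 1 (left) and as the mean of numbers 2 and 3 (right), with the median of 11998 expressed genes in 10 bins of GC content (squares). The line is nearly flat on the left, from 0.11 to -0.05, and climbs from -0.92 to 0.56 on the right, where HERPUD1 and PPP1R15A lie far above it.

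Levels per kilobase of exon, counted over all annotated exons of a gene, place the chaperones HSPA5, CANX, CALR and HSP90B1 first. In DMSO the order began with HSPA5 at 242 ± 208 CPM per kb, CANX at 174 ± 57.3, CALR at 141 ± 2.97, HSP90B1 at 105 ± 41.4, PPP1R15A at 81.4 ± 58.7 and P4HB at 78.7 ± 7.68. Sensors stood low, with ATF6 at 10.7 ± 2.36, EIF2AK3 at 5.62 ± 2.58 and ERN1 at 2.02 ± 0.842 CPM per kb. The last were CRELD2 at 1.63 ± 0.325 and DERL3 at 0.0563 ± 0.00703. The DMSO ranges of neighbours overlapped in 30 of 33 pairs, and the 3 breaks were between P4HB and PDIA4, ERO1B and ERN1, and CRELD2 and DERL3. In TPA PPP1R15A stood at 243 ± 17.7 CPM per kb and HSPA5 at 315 ± 154, with overlapping ranges.

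Reads of some members may be shared. DNAJB9, DNAJB11, CRELD2, SYVN1, DERL1, DERL2 and DERL3 have exons that overlap another gene with at least 10% of their counts, and the strand setting of the counting is not given in the sources used here. For SYVN1 these are MRPL49 and FAU, so its count is uncertain. The processed copy PDIA3P1 had up to 615 counts, against a mean of 8049 for PDIA3, and XBP1P1 and HSP90B2P stayed under 100, with at most 83 and 87.

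Other genes of the same routes had few calls without the block and more with it, as did all genes, of which 0.861% were called higher on 3 against 3 libraries, 22.1% had an unadjusted p under 0.05, and 6.93%, 1.13% and 4.58% were called higher in DESeq2, limma-voom and the blocked fit. These counts are to be read against those shares. Of 37 tested ER folding factors outside the 34, 0 passed on 3 against 3 libraries (10 at an unadjusted p under 0.05, 6 higher in DESeq2, 0 in limma-voom), while 2 rose and 1 fell in the blocked fit. The lowest adjusted p belonged to TXNDC11, a thioredoxin-domain gene (log2 1.0 ± 0.24, 0.0734), and QSOX1, a sulfhydryl oxidase gene (1.25 ± 0.30, 0.0743). Of 26 other degradation genes 0 passed (8 unadjusted, 7 in DESeq2, 1 in limma-voom) and 5 rose with the block. VCP, the ATPase that pulls proteins out of the membrane, had 1.15 ± 0.22 (adjusted p = 0.0576), and its co-factor gene NPLOC4 1.10 ± 0.21 (0.0581).

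Of 32 translocation, signal peptidase and glycan transfer genes 0 passed (11 unadjusted, 6 in DESeq2, 0 in limma-voom) and 4 rose with the block. SRPRA, the receptor of the signal recognition particle, had 0.97 ± 0.21, and SEC61A1, the channel itself, 1.04 ± 0.23 (both with adjusted p = 0.0676). Of 23 COPII and retrieval genes 0 passed (9 unadjusted, 6 in DESeq2, 1 in limma-voom) and 5 rose with the block. The cargo receptor gene SURF4 had 1.08 ± 0.21 (adjusted p = 0.0589) and SEC24C, a relative of SEC24D, 0.89 ± 0.19 (0.0651). In these 4 lists the medians were 0.31, 0.17, 0.20 and 0.11, lower than the 0.43 of the members and above the -0.11 of all genes. The lists that follow came close to the members, with medians of 0.41 for stress signalling genes and 0.39 for cytosolic and mitochondrial chaperones. These differences were not tested.

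Of 19 other stress signalling genes 0 passed (6 unadjusted, 6 in DESeq2, 1 in limma-voom) and 3 rose with the block. CHAC1, a glutathione-degrading enzyme induced by ATF4, had 9.81, 2.96 and 2.83 CPM in DMSO and 39.8, 31.0 and 30.0 CPM in TPA. The groups did not overlap, and DMSO 1 was the highest control, as in the members. Its log2 fold change was 2.69 ± 0.52 (adjusted p = 0.0583), and 2.92 ± 0.33 in the blocked fit (adjusted p = 0.000623). Without the block it passed once DMSO 1 was left out, at 3.54 (adjusted p = 0.0285), and with TPA 1 left out, at 2.66 (adjusted p = 0.00377). CREB3, a membrane-bound transcription factor gene, had 1.01 ± 0.23 (adjusted p = 0.0704). Of 26 chaperones of the cytosol and mitochondria 1 passed (8 unadjusted, 7 in DESeq2, 1 in limma-voom), while 6 rose and 1 fell in the blocked fit. The shares called higher were 26.9% in DESeq2 and 23.1% in the blocked fit, beside 21.2% of the members in each. The 1 gene called on 3 against 3 libraries was HSPA8, the constitutive cytosolic Hsp70. It rose from 965 ± 104 to 2138 ± 152 CPM (1.15 ± 0.18, adjusted p = 0.0402). That call was lost without any 1 library other than TPA 1, with adjusted p from 0.0683 to 0.288, and with scaling by library size alone (0.0524).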

How the data were processed

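RNA sequencing of total RNA gave 6 libraries, 3 TPA and 3 DMSO. The authors deposited unnormalized read counts, 1 row per gene symbol. The tools were HISAT2 2.1.0 and HTSeq 0.12.4 and the builds hg38 and GRCh38, per the submitters' processing notes. Neither the annotation nor the strand setting is given in the sources used here. Of the columns 0 matched no sample, and 0 rows named no gene. CPM values are deposited counts over TMM-scaled library sizes, and 3 counts in a library equal 0.0915 to 0.109 CPM, which covers counting error only.

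TPA was compared with DMSO in R 4.3.3 by the quasi-likelihood F-test of edgeR 4.0.16, after filterByExpr and TMM scaling, with Benjamini-Hochberg adjustment at 0.05 over 21825 genes. The 34 members, their role groups and the other lists were chosen with earlier results of these data known. Titles give both groups the numbers 1 to 3. Deviations of same-numbered libraries correlated above 0.1 in every pair, so the numbers were taken to pair libraries, although the values do not tell numbers 2 and 3 apart and no label states a shared culture or day. The GC correction used a natural spline with 5 degrees of freedom per library, fitted where the average log2 CPM exceeded 2 (prior count 2), as an offset. Transcript GC content, exon length and gene coordinates (from 1) came from GENCODE 29, with a GC value for 21024 tested genes (96.3%).

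All members are accounted for. Those called with or without the block, and HSPA5, HSP90B1, CALR, XBP1, ATF6, ERN1 and EIF2AK3, are given in every library, as is SEL1L, chosen after its values were seen. Of other lists the text names called genes, or else the 2 with the lowest adjusted p. Alternatives were RLE factors, library size only, 2 other filters, DESeq2 1.42.0, limma-voom (limma 3.58.1), the block with and without GC correction, both libraries numbered 1 left out and each library left out. The fits with and without the block were also run on simulated counts with known changes. Those counts held no effect of library number or GC content, and the other steps were not simulated. Protein sequences were not analysed here.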

Additional observations from a re-analysis of the deposited data

Results flagged for a closer look

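In 24 of 33 tested members the effect of TPA in libraries numbered 1 differed from that in numbers 2 and 3. This was flagged because the treatment-by-number term passed an adjusted p of 0.05 in edgeR's quasi-likelihood test, as it did for 46.7% of all genes. The log2 effect of number 1 minus that of numbers 2 and 3 was negative in 16 members and positive in 8, which gives a direction and not a strength. HSPA5, the gene of BiP, is an example of the first, with a log2 difference of -0.86, and TPA 1 and DMSO 1 were nearly level. HSP90B1 is an example of the second, at 0.97, with a TPA level above DMSO in number 1 and below it in the others. The term was added after the pattern was seen in the same libraries. Number 1 is a single library per group and the spread comes only from numbers 2 and 3, so the test compares these libraries and is no independent evidence. What distinguished the libraries numbered 1 was not tested.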

How the results depend on the processing

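The 0 members called higher and 0 lower held with RLE factors, library size only, no filter, the filter of at least 1 CPM and limma-voom. DESeq2 and the replicate block each called 7 higher, beside 6.93% and 4.58% of all genes, and the block with GC correction 14, beside 8.99%. Leaving out both libraries numbered 1 called 24 higher and 7 lower, beside 32.2% and 33.3% of all genes. Leaving out 1 library gave 0 to 15 higher and 0 to 7 lower. The highest counts came without TPA 1, where 24.6% and 27.8% of all genes were called. The members' median log2 fold change was 0.19 with library size only, 0.55 with DESeq2, 0.71 without number 1 and 0.36 to 0.79 with 1 library left out. All genes called higher were 429 with no filter, 1635 with DESeq2, 1000 with the block, 1890 with block and GC correction, 7216 without number 1 and 0 to 5577 with 1 library left out, against 188. All genes called lower were 219 with library size only, 202 with no filter, 758 with DESeq2, 130 with limma-voom, 1423 with the block, 2176 with block and GC correction, 7475 without number 1 and 0 to 6297 with 1 library left out, against 86. Without DMSO 2 or DMSO 3 both were 0 in edgeR, with 2612 and 2745 genes at an unadjusted p under 0.05. For the 163 tested genes of the other lists, 1 higher became 2 with RLE factors, 0 with library size only, 7 with no filter, 38 with DESeq2, 4 with limma-voom, 25 with the block, 50 with block and GC correction, 93 without number 1 and 0 to 76 with 1 library left out. Their 0 lower became 2 with the block, 2 with block and GC correction, 48 without number 1 and 0 to 45. The 24 members with a differing effect were 24 or 25 under the 4 alternatives tried. None of the 7 members called in the blocked fit reversed, but others did, among them ATF6, DNAJB9 and SEC24D, called with block and GC correction, and HSP90B1 and EDEM2, called without number 1. Library size only gave PDIA6 -0.034, ATF6 -0.13, EDEM1 -0.13 and EDEM2 -0.074. RLE factors gave EIF2AK3 0.048, no filter 0.028 and DESeq2 0.070, and DESeq2 gave CANX 0.018. For DNAJC3 limma-voom and the block each gave -0.22 and the fit without number 1 -0.56, and for ERO1B -0.22, -0.21 and -0.57. The block with GC correction gave HSP90B1 0.13, ERO1A 0.24, EIF2AK3 0.10, EDEM1 -0.21 and EDEM2 -0.18. With 1 library left out the ranges were -0.92 to 0.27 in HSP90B1, -0.33 to 1.80 in DNAJB9, -1.12 to 0.80 in DNAJC3, -0.87 to 0.26 in CANX, -0.64 to 0.024 in ERO1A, -1.12 to 0.79 in ERO1B, -0.20 to 0.32 in ATF6, -1.07 to 0.41 in EIF2AK3, -0.10 to 0.30 in EDEM1, -1.46 to 0.052 in SEL1L and -0.081 to 1.57 in SEC24D. The cause of these shifts was not tested. DERL3, at 4 to 7 counts, was too low for a detectable difference.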
